A study of Mus musculus with 18 samples.

Results

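Macrophages engulf particles that are coated with antibody or complement, and the receptors for these coats are encoded by a small group of genes. Expression of 10 of them was examined in J774.1 cells, a mouse tumour line with macrophage properties, among the 18204 genes listed by the RNA-seq table. The members were chosen by symbol as Fc receptors, complement receptors and dectin-1, with earlier results of these data known, and the choice used no threshold on expression. All 10 were listed and all 10 passed the filter on low expression, which kept 16383 genes.

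The study asked whether 2 inhibitors of the C-terminal binding proteins (CTBPs), MTOB and 4-Cl-HIPP, act through these transcriptional co-repressors. Wildtype J774.1 cells and cells with both Ctbp1 and Ctbp2 disrupted by CRISPR (dKO) received PBS/DMSO vehicle, 1.5 mM MTOB or 0.25 mM 4-Cl-HIPP for 4 h. Each of the 6 groups held 3 samples, 18 in all, and a single vehicle group per genotype served both inhibitors. By the methods MTOB was dissolved in PBS and 4-Cl-HIPP in DMSO, and the paper's description names only DMSO as vehicle. The part of the solvent in the inhibitor comparisons was not tested. According to the methods, edited cells were grown out as clones from single cells and typed as wildtype or knockout. The number of clones behind each genotype is not given, so differences between genotypes and differences between clones cannot be told apart. The methods call the 3 samples of a group biological triplicates, and neither they nor the labels say whether these came from separate experiments, so p-values measure the spread between these samples.

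Fc gamma receptors bind the constant part of IgG. Fcgr1 encodes the high-affinity receptor CD64, and Fcgr3 and Fcgr4 encode activating receptors of lower affinity. These 3 receptors signal through the gamma chain encoded by Fcer1g, which carries an immunoreceptor tyrosine-based activation motif (ITAM), whereas Fcgr2b encodes the inhibitory receptor with the opposing inhibitory motif. Itgam (CD11b) and Itgb2 (CD18) form complement receptor 3, the integrin that takes up particles coated with the complement fragment iC3b. C3ar1 and C5ar1 encode the G protein-coupled receptors of the soluble fragments C3a and C5a, and Clec7a encodes dectin-1, the receptor of fungal beta-glucan.

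In the mouse genome build GRCm39, 4 of the 5 Fc receptor genes lie close together on chromosome 1: Fcgr2b at chr1:170786186-170804177, Fcgr4 at chr1:170846466-170857330, Fcgr3 at chr1:170878738-170893549 and Fcer1g at chr1:171057141-171062219. Fcgr1 lies apart at chr3:96190225-96201338. Itgam lies at chr7:127661808-127717753 and C5ar1 on the same chromosome at chr7:15980668-15993465. C3ar1 (chr6:122823393-122833122) and Clec7a (chr6:129438554-129449742) share chromosome 6, and Itgb2 lies at chr10:77366086-77401542. Of these genes, Fcgr4, Itgam and Itgb2 are on the plus strand. The protein-coding readthrough gene Gm49368 overlaps Itgam on the same strand and held 89.3% of the 100-base windows of the canonical Itgam transcript, so reads could have been divided between the pair. Fcgr2b and Fcgr3 shared 3.04% of the windows of Fcgr3 and 1.33% of those of Fcgr2b. With any other gene, Fcgr3 included, Fcgr2b shared 6.93% of its windows, the most with Gm64270 (3.72%).

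Members with higher RNA in dKO than in wildtype cells under vehicle are shown with the 250 bases upstream of their canonical start, read from GRCm39 with the GENCODE M39 annotation, because they moved in the same direction. Capitals mark the PU.1 core GAGGAA, bound by the myeloid transcription factor PU.1, on either strand. The windows are chr3:96201339-96201588 (minus strand) for Fcgr1, chr7:127661558-127661807 (plus) for Itgam, chr10:77365836-77366085 (plus) for Itgb2, chr6:122833123-122833372 (minus) for C3ar1 and chr6:129449741-129449990 (minus) for Clec7a. The window of C5ar1 is not printed because other annotated transcripts of the gene cover 202 of its bases. In the window of Clec7a another transcript covers 2 bases next to the start.
Fcgr1: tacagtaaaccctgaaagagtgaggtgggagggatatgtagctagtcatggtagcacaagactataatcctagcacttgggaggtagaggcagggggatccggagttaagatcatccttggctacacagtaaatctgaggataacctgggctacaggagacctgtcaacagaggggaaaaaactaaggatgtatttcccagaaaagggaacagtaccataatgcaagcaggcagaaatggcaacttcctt
Itgam: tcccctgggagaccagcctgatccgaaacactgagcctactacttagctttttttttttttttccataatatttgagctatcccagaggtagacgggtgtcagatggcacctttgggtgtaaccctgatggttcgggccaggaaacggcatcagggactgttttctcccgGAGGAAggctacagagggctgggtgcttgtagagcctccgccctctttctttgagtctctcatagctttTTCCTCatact
Itgb2: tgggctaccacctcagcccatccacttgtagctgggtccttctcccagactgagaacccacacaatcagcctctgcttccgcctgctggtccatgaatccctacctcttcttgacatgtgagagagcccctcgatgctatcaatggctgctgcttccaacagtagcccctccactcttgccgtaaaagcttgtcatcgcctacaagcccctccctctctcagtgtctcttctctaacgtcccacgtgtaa
C3ar1: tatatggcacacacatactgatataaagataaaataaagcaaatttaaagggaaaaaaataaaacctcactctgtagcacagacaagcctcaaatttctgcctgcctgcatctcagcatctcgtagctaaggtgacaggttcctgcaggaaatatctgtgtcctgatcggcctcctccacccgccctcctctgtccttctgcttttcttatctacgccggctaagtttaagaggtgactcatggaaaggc
Clec7a: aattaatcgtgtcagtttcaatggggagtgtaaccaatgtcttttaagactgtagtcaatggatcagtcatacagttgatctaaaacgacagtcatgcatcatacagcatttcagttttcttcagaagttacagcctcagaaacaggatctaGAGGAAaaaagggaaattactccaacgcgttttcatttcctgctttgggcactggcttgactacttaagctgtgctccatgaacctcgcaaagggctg

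The Itgam window held the PU.1 core at 80 and at 11 bases before the start, and the Clec7a window held it at 98 bases. The same letters occurred in 22.9% of 21770 promoter windows of this length, and 3.46% had them at least 2 times. The windows of Fcgr1, Itgb2, C3ar1 and C5ar1 did not hold it. Among the other members, Fcer1g held 2 PU.1 cores, and Fcgr2b, Fcgr3 and Fcgr4 held none, the windows of Fcgr2b and Fcgr3 lying wholly within other annotated transcripts of these genes. A match of letters is a description of the sequence, not of binding.

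Levels are given in TPM, a unit of transcript abundance. TPM account for transcript length and sum to about the same total in every sample. In wildtype cells under vehicle the order of the members was Fcer1g, Itgb2, Fcgr1, Itgam, Fcgr2b, C5ar1, Fcgr3, C3ar1, Clec7a and Fcgr4. Fcer1g had 335 ± 10.8 TPM (SD, n = 3), Itgb2 55.1 ± 1.09 and Fcgr1 33.2 ± 2.22, whereas C3ar1 had 0.993 ± 0.222 and Clec7a 0.704 ± 0.218. The samples of C5ar1 and Fcgr3 overlapped, as did those of C3ar1 and Clec7a, and all other neighbours in this order were separate. In dKO cells under vehicle the order was Fcer1g, Itgb2, Fcgr1, Itgam, C5ar1, C3ar1, Clec7a, Fcgr3, Fcgr2b and Fcgr4, so that Fcgr2b stood below C5ar1, C3ar1, Clec7a and Fcgr3. There the samples of Fcgr1 overlapped with those of Itgam, Clec7a with Fcgr3, Fcgr3 with Fcgr2b and Fcgr2b with Fcgr4.

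**Figure D1:**
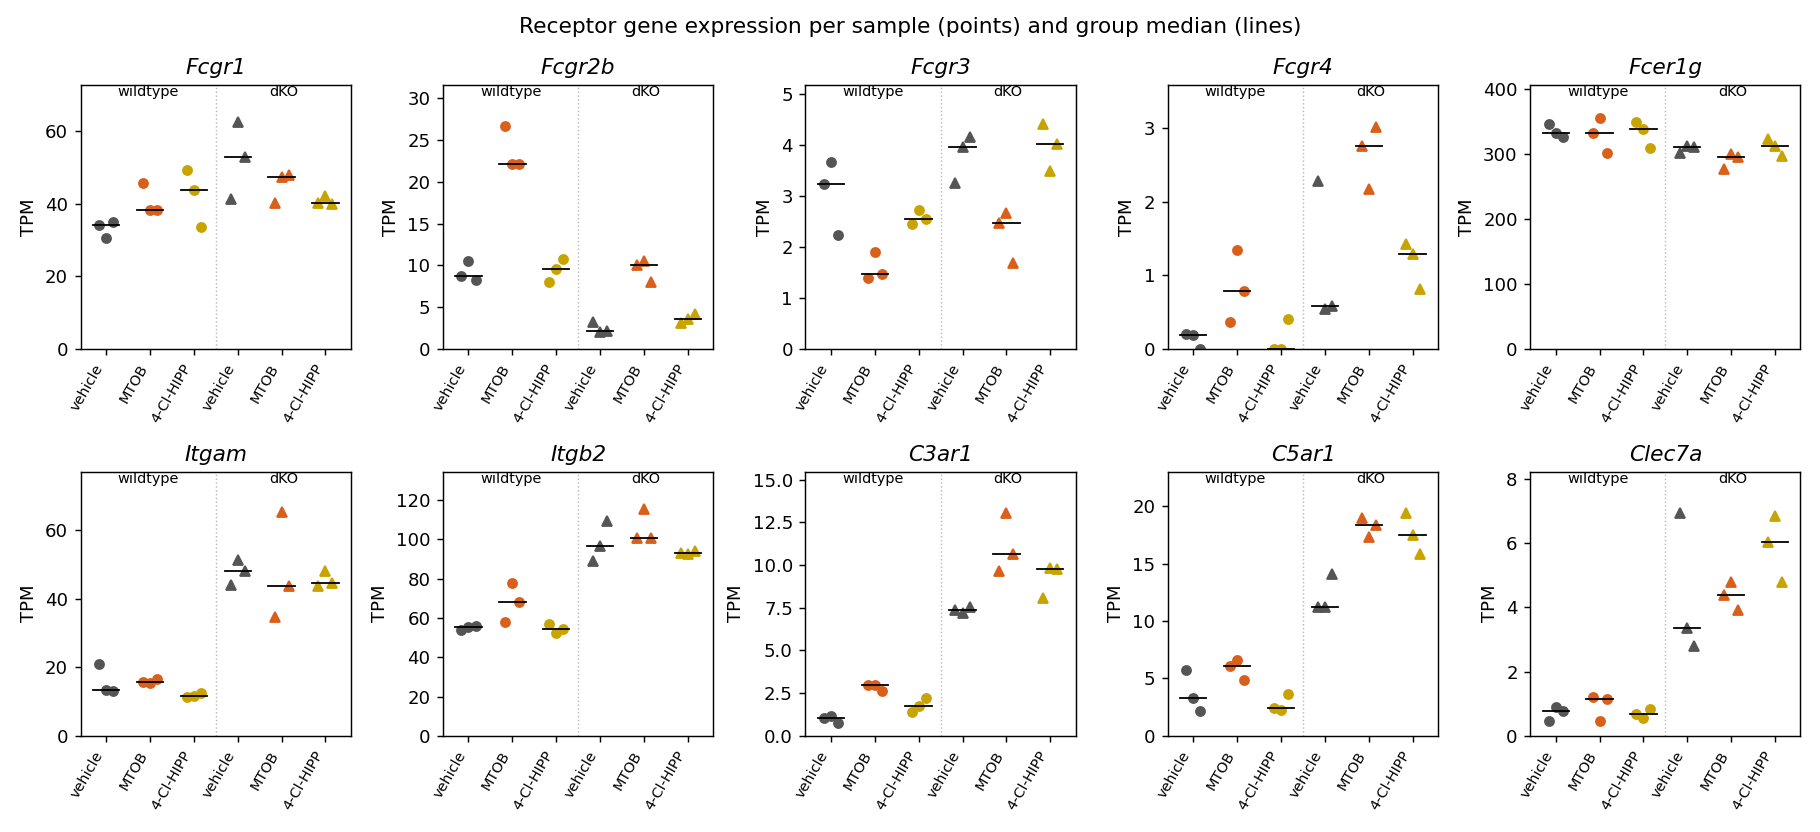
TPM of the 10 receptor genes in each sample (points; circles wildtype, triangles dKO) under vehicle, MTOB and 4-Cl-HIPP, with lines at the group medians and a separate linear axis from 0 for each gene. For Itgam, Itgb2, C3ar1, C5ar1 and Clec7a every dKO point lies above every wildtype point, while Fcgr2b rises with MTOB in both genotypes and is lower in dKO cells within each treatment.

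The depth behind these values differs between members. TPM keep no read depth per sample, so only the mean normalized count over all samples shows it, and this was 910 for Itgb2, 755 for Fcer1g, 585 for Itgam and 452 for Fcgr1. It was 101 for C5ar1, 98.3 for C3ar1 and 62.9 for Fcgr2b. Clec7a (22.8), Fcgr3 (16.0) and Fcgr4 (5.16) rested on few reads, and Fcgr4 was listed at 0 in 3 of the 18 samples. Log2 fold changes below are on log2(TPM + 1) and understate the change of genes with low TPM.

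The library labels were checked against the targeted genes and against cell type markers. Ctbp1 RNA had a log2 fold change of -3.07 in dKO over wildtype cells under vehicle (SE 0.13) and Ctbp2 RNA of -0.28 (SE 0.06, adjusted p = 0.00427), and the same directions held under both inhibitors. RNA does not measure the protein. The paper reports frameshift and premature stop mutations in both genes, and loss of both proteins by western blot. All 10 macrophage markers were detected in every sample, with a summed level of 2879 to 3914 TPM. The sums of T cell markers reached 9.07 TPM, mostly of Lck, and those of dendritic cell markers 3.60 TPM. Markers of B cells, neutrophils, fibroblasts and epithelium stayed at or below 1.05 TPM, and none of the NK cell or mast cell markers was listed.

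The RNA of most of these receptor genes was higher in dKO than in wildtype cells without inhibitor, and that of the inhibitory Fc receptor was lower. Under vehicle 6 members were higher and 1 was lower in dKO cells with adjusted p-values under 0.05 in limma, corrected over all genes by Benjamini-Hochberg, and all 7 changed by more than 1.5-fold. Of all genes tested, 10.7% passed the same threshold, 7.01% as higher and 3.72% as lower, and 4.83% also changed by more than 1.5-fold. The samples of the 2 genotypes did not overlap for 9 members and for 26.1% of all genes. The median log2 fold change was 0.83 for the members and 0.01 for all genes. In bulk RNA, fewer cells that express a gene and less of its RNA per cell cannot be told apart.

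Both anaphylatoxin receptors were higher in dKO cells. C3ar1 had 1.06, 1.17 and 0.744 TPM in the wildtype vehicle samples and 7.34, 7.20 and 7.56 TPM in the dKO vehicle samples. Every dKO sample was far above every wildtype sample, and the log2 fold change was 2.08 (SE 0.13, adjusted p = 1.85e-08). C5ar1 had 5.77, 3.26 and 2.12 TPM in wildtype and 11.2, 11.2 and 14.1 TPM in dKO cells. These groups did not overlap either, although the wildtype samples were widely spread, and the log2 fold change was 1.55 (SE 0.22, adjusted p = 0.000144).

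Both chains of complement receptor 3 were higher in dKO cells. Itgam had 21.0, 13.4 and 13.0 TPM in wildtype and 44.1, 51.3 and 48.2 TPM in dKO cells. Its log2 fold change was 1.57 (SE 0.18, adjusted p = 2.26e-05). Itgb2, the beta chain shared by the leukocyte integrins, had 53.8, 55.4 and 55.9 TPM in wildtype and 88.9, 96.5 and 109 TPM in dKO cells. Its log2 fold change was 0.82 (SE 0.09, adjusted p = 1.38e-05). Neither gene had overlapping groups. Gm49368, which shares sequence with Itgam, did not exceed 0.269 TPM in wildtype vehicle and 0.818 TPM in dKO vehicle samples, and with both summed the log2 fold change was 1.58 (SE 0.17). It reached 4.02 TPM in the first dKO MTOB sample, where Itgam was lowest among the dKO samples (34.6 TPM), and under MTOB the summed log2 fold change between genotypes was 1.54 (SE 0.17). The ratio of Itgam to Itgb2 TPM was 0.288 ± 0.0885 (SD, n = 3) in wildtype and 0.490 ± 0.0459 in dKO cells.

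Dectin-1 RNA was scarce in wildtype and higher in dKO cells. Clec7a had 0.461, 0.883 and 0.768 TPM in wildtype and 6.93, 3.37 and 2.79 TPM in dKO vehicle samples. The first dKO sample was well above the other two, all 3 lay above the wildtype samples, and the log2 fold change was 1.59 (SE 0.24, adjusted p = 0.000297).

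Among the Fc receptors, the inhibitory Fcgr2b was lower and the activating Fcgr1 higher in dKO cells under vehicle. Fcgr2b, the inhibitory receptor, had 8.68, 10.5 and 8.26 TPM in wildtype and 3.28, 2.02 and 2.10 TPM in dKO cells. Its log2 fold change was -1.56 (SE 0.16, adjusted p = 5.63e-06). With Fcgr3 added to it as a single feature, the log2 fold change was -0.85 (SE 0.13, adjusted p = 0.000323). Fcgr1 had 34.1, 30.7 and 34.9 TPM in wildtype and 41.3, 62.6 and 52.9 TPM in dKO cells. All dKO samples were above all wildtype samples for Fcgr1, and the log2 fold change was 0.62 (SE 0.14, adjusted p = 0.00937). This call was lost without the second dKO vehicle sample (0.48, adjusted p = 0.0545) and with only the groups compared in the fit (adjusted p = 0.0845).

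The remaining Fc receptor genes did not pass the threshold under vehicle. Fcgr3 had 3.24, 3.66 and 2.23 TPM in wildtype and 3.25, 3.96 and 4.15 TPM in dKO cells, with overlapping groups and a log2 fold change of 0.26 (95% confidence interval -0.10 to 0.61). Fcgr4 had 0.199, 0.185 and 0 TPM in wildtype and 2.28, 0.547 and 0.590 TPM in dKO cells. The samples were separate, yet the log2 fold change of 0.84 had an adjusted p of 0.0674. It passed at a pseudocount of 0.1 (2.32, adjusted p = 0.0368) and without the second dKO vehicle sample (1.02, adjusted p = 0.0462). A pseudocount of 5 gave 0.25 (adjusted p = 0.121 in limma). Without the first dKO vehicle sample, the highest of its group, the value was 0.48. With single samples left out, adjusted p ran up to 0.282. Fcer1g, the shared signalling chain, had 347, 332 and 326 TPM in wildtype and 302, 312 and 310 TPM in dKO cells. The dKO samples were all below the wildtype samples, and the log2 fold change was -0.12 (95% confidence interval -0.25 to 0.01, adjusted p = 0.295).

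The same comparison was available in the samples treated with either inhibitor. The vehicle fold changes do not use these samples, but all 18 samples shared 1 estimate of the spread, which enters every SE. Neither labels nor methods name other clones for the treated samples, so they are not shown to be an independent repeat. Under MTOB 6 members were higher and 1 lower in dKO cells (limma), with 11.2% of all genes called, 6.98% higher and 4.18% lower. Under 4-Cl-HIPP 6 were higher and 1 lower too, with 10.2% of all genes called, 6.6% higher and 3.63% lower. C3ar1, C5ar1, Itgam, Itgb2 and Clec7a were higher and Fcgr2b was lower in dKO cells under all 3 treatments, without overlap of the samples. Over all genes, samples of the genotypes did not overlap for 23.5% under MTOB and 25.2% under 4-Cl-HIPP. C3ar1 had a log2 fold change of 1.64 under MTOB and 1.88 under 4-Cl-HIPP (SE 0.13). For C5ar1 the values were 1.50 and 2.31 (SE 0.22), for Itgam 1.49 and 1.85 (SE 0.18), for Itgb2 0.63 and 0.77 (SE 0.09), for Clec7a 1.49 and 2.02 (SE 0.24) and for Fcgr2b -1.23 and -1.17 (SE 0.16). For Fcgr2b summed with Fcgr3 they were -1.04 and -0.59 (SE 0.13).

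Fcgr1 did not pass under either inhibitor, and Fcgr4 passed under both. Neither gene passed the test of whether the genotype difference changed with an inhibitor (adjusted p of 0.703 or more in limma). The log2 fold change of Fcgr1 was 0.15 under MTOB (95% confidence interval -0.16 to 0.46) and -0.03 under 4-Cl-HIPP (-0.34 to 0.27). Fcgr4 had 0.371, 1.35 and 0.785 TPM in wildtype and 2.75, 2.18 and 3.01 TPM in dKO cells under MTOB, and the log2 fold change was 1.02 (SE 0.27, adjusted p = 0.0231). Under 4-Cl-HIPP it was listed at 0, 0 and 0.405 TPM in wildtype and had 1.43, 1.29 and 0.813 TPM in dKO cells, and the log2 fold change was 0.95 (SE 0.27, adjusted p = 0.0372). Each of these Fcgr4 calls was lost when any of 4 of its 6 samples was left out, with adjusted p-values of up to 0.110 and 0.125. For MTOB these were replicates 1 and 3 of each genotype, and for 4-Cl-HIPP replicates 1 and 2. The MTOB call was also lost at a pseudocount of 0.1 (adjusted p = 0.144) and with only the groups compared in the fit (adjusted p = 0.0741). The 4-Cl-HIPP call was also lost at a pseudocount of 5 (adjusted p = 0.0936), with only the groups compared (adjusted p = 0.0574) and with the replicate number as a block (adjusted p = 0.0584). Fcgr3 (0.34 and 0.48) and Fcer1g (-0.18 and -0.10) did not pass in either comparison, although Fcer1g passed under MTOB without the third wildtype MTOB sample (-0.24, adjusted p = 0.0185).

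**Figure D2:**
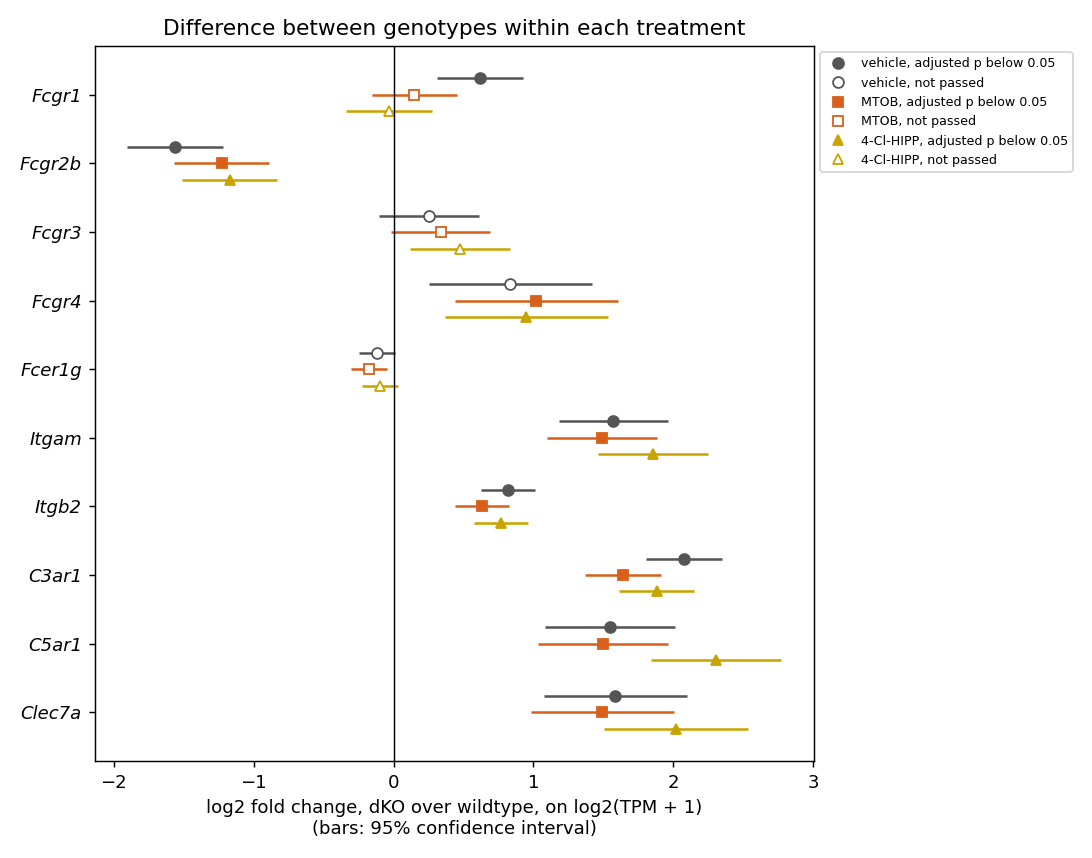
Log2 fold change of each receptor gene in dKO over wildtype cells (x axis, on log2(TPM + 1)) within vehicle, MTOB and 4-Cl-HIPP samples; bars are 95% confidence intervals, and filled symbols passed an adjusted p-value of 0.05. C3ar1, C5ar1, Itgam, Itgb2 and Clec7a lie to the right of 0 and Fcgr2b to the left under all 3 treatments, between 2.31 (C5ar1, 4-Cl-HIPP) and -1.56 (Fcgr2b, vehicle).

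Macrophage marker levels also differed between the genotypes. The summed level of the 10 markers was 3217 to 3315 TPM in wildtype and 3015 to 3043 TPM in dKO cells under vehicle. The mean of Cd14 alone fell by more than this sum, from 458 to 143 TPM. Within the list, Adgre1 (F4/80) ranged from 24.6 to 107 TPM in the 9 wildtype and from 6.70 to 13.7 TPM in the 9 dKO samples, and Cd14 from 370 to 857 and from 91.6 to 329 TPM. Lgals3 was higher in dKO cells, with 280 to 325 against 172 to 207 TPM. The part of these differences in the receptor results was not tested.

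Between the genotypes under vehicle, the size of the differences of low members depended on the pseudocount. A pseudocount of 5 gave log2 fold changes of 1.05 for C3ar1, 1.00 for C5ar1, 0.69 for Clec7a and -0.92 for Fcgr2b, all still called, and a pseudocount of 0.1 gave 2.40 for Clec7a. On the plain TPM scale the mean in dKO cells was 7.41 times that in wildtype for C3ar1, 6.2 times for Clec7a, 3.28 times for C5ar1 and 3.03 times for Itgam.

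Inhibitor treatment for 4 h changed fewer of the members, and those called were Fcgr2b, Fcgr3 and C3ar1. In wildtype cells MTOB raised 2 members and lowered 1 (limma, Benjamini-Hochberg), against 7.26% of all genes called, 3.8% as higher and 3.46% as lower. In dKO cells it raised 2 members, against 6.58% of all genes called, 3.04% as higher and 3.54% as lower. The median log2 fold change of the members was 0.29 in wildtype and 0.09 in dKO cells, and -0.01 for all genes in each. The vehicle samples are shared between the inhibitor comparisons of a genotype. The summed macrophage markers were also higher with MTOB in wildtype cells, at 3753 to 3914 TPM against 3217 to 3315 TPM, and in dKO cells, at 3085 to 3410 TPM against 3015 to 3043 TPM. A large part of the wildtype rise was that of Cd14, from a mean of 458 to 833 TPM, so the sum does not show a general rise of the markers. Their part in the receptor results was not tested.

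Fcgr2b rose with MTOB in both genotypes. Its log2 fold changes were the greatest of the 10 members on log2(TPM + 1), but in wildtype cells not at a pseudocount of 0.1, where Fcgr4 had 2.05 (not called), C3ar1 1.46 and Fcgr2b 1.36. In wildtype cells it rose from 8.68, 10.5 and 8.26 TPM with vehicle to 26.6, 22.1 and 22.1 TPM with MTOB, by 1.28 on the log2 scale (SE 0.16, adjusted p = 9.69e-05). In dKO cells, where it started lower, it rose from 3.28, 2.02 and 2.10 TPM to 10.1, 10.5 and 7.98 TPM, by 1.61 on the log2 scale (SE 0.16, adjusted p = 1.08e-05). The Fcgr2b levels of MTOB-treated dKO samples overlapped with those of vehicle-treated wildtype samples. Summed with Fcgr3, the log2 fold changes were 0.99 in wildtype and 0.81 in dKO cells (SE 0.13). The difference between the effects in the 2 genotypes, wildtype minus dKO, was -0.33 (95% confidence interval -0.82 to 0.15). For Fcgr2b summed with Fcgr3 this difference was 0.18 (-0.21 to 0.58). At a pseudocount of 5 the effects on Fcgr2b alone were 1.01 in wildtype and 0.96 in dKO cells, so the sign of the difference was not settled.

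C3ar1 rose with MTOB in both genotypes. It had 3.00, 2.96 and 2.63 TPM in MTOB-treated wildtype samples, above all vehicle samples, and the log2 fold change was 0.96 (SE 0.13, adjusted p = 0.000156). It was 1.46 at a pseudocount of 0.1 and 0.39 at a pseudocount of 5, and called at both. In dKO cells it had 9.66, 13.0 and 10.6 TPM with MTOB, and the log2 fold change of 0.52 (SE 0.13, adjusted p = 0.0201) was below 1.5-fold. On the plain TPM scale the mean with MTOB was 1.51 times that with vehicle. The dKO call was lost at a pseudocount of 0.1 (adjusted p = 0.0601), with only the groups compared in the fit (adjusted p = 0.104) and without any of the dKO vehicle samples or the second dKO MTOB sample (up to 0.0836).

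Fcgr3 fell with MTOB in wildtype cells, where Fcgr2b rose. It went from 3.24, 3.66 and 2.23 TPM to 1.38, 1.91 and 1.46 TPM with MTOB in wildtype cells, and the log2 fold change was -0.63 (SE 0.17, adjusted p = 0.0301). The call was lost at a pseudocount of 0.1 (adjusted p = 0.0568), with only the groups compared in the fit (adjusted p = 0.148) and without vehicle replicate 1 or 2 or MTOB replicate 1 or 3 (up to 0.132). In dKO cells Fcgr3 had 2.47, 2.67 and 1.69 TPM with MTOB, below all vehicle samples, and the log2 fold change was -0.55 (SE 0.17, adjusted p = 0.0635). It passed at a pseudocount of 5 (adjusted p = 0.0428) and without the variance trend (adjusted p = 0.0375). With few reads per sample, the division of shared sequence between Fcgr2b and Fcgr3 was not tested.

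Other members did not pass the threshold with MTOB. The samples of Itgb2 did not overlap in wildtype cells (58.0, 78.0 and 68.2 TPM with MTOB), with a log2 fold change of 0.29 (adjusted p = 0.0706). Itgb2 passed without the first wildtype MTOB sample (0.40, adjusted p = 0.0101), with rescaled TPM (adjusted p = 0.0475) and when genes under a mean normalized count of 10 were dropped (adjusted p = 0.0422). C5ar1 had log2 fold changes of 0.60 in wildtype (adjusted p = 0.128) and 0.55 in dKO cells (adjusted p = 0.171), and without the first wildtype vehicle sample, the highest of its group, the wildtype value was 0.90 (adjusted p = 0.00734). Fcgr4 had log2 fold changes of 0.67 and 0.86 with adjusted p-values of 0.185 and 0.0795. In dKO cells it passed without the first dKO vehicle sample (1.21, adjusted p = 0.00759) and at a pseudocount of 5 (adjusted p = 0.0482). Leaving out some other samples lowered these values instead (limma). Itgb2 in wildtype fell as low as 0.19, with adjusted p up to 0.286. C5ar1 in wildtype fell to 0.34 (up to 0.440), and Fcgr4 in dKO cells to 0.67 (up to 0.274). Itgam (0.04 and -0.05), Clec7a (0.17 and 0.07) and Fcer1g (-0.02 and -0.08) had values near 0, and Fcgr1 had 0.28 in wildtype and -0.19 in dKO cells.

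With 4-Cl-HIPP 0 members passed the threshold in either genotype, and 0.366% of all genes in wildtype and 0.501% in dKO cells did (limma, Benjamini-Hochberg). At an unadjusted p below 0.05 there were 2 members in wildtype, Fcgr1 and C3ar1, with 8.19% of all genes, and 4 in dKO cells, Fcgr1, Fcgr2b, C3ar1 and C5ar1, with 8.47% of all genes. C3ar1 had 1.39, 1.76 and 2.20 TPM in wildtype cells, all above the vehicle samples, a log2 fold change of 0.48 (95% confidence interval 0.21 to 0.75, adjusted p = 0.181). In dKO cells its log2 fold change was 0.28 (0.01 to 0.55). C5ar1 had 19.4, 17.5 and 15.9 TPM in 4-Cl-HIPP-treated dKO samples, above all vehicle samples, and a log2 fold change of 0.50 (0.04 to 0.97, adjusted p = 0.534). Fcgr2b had log2 fold changes of 0.04 in wildtype (-0.30 to 0.38) and 0.43 in dKO cells (0.09 to 0.77).

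**Figure D3:**
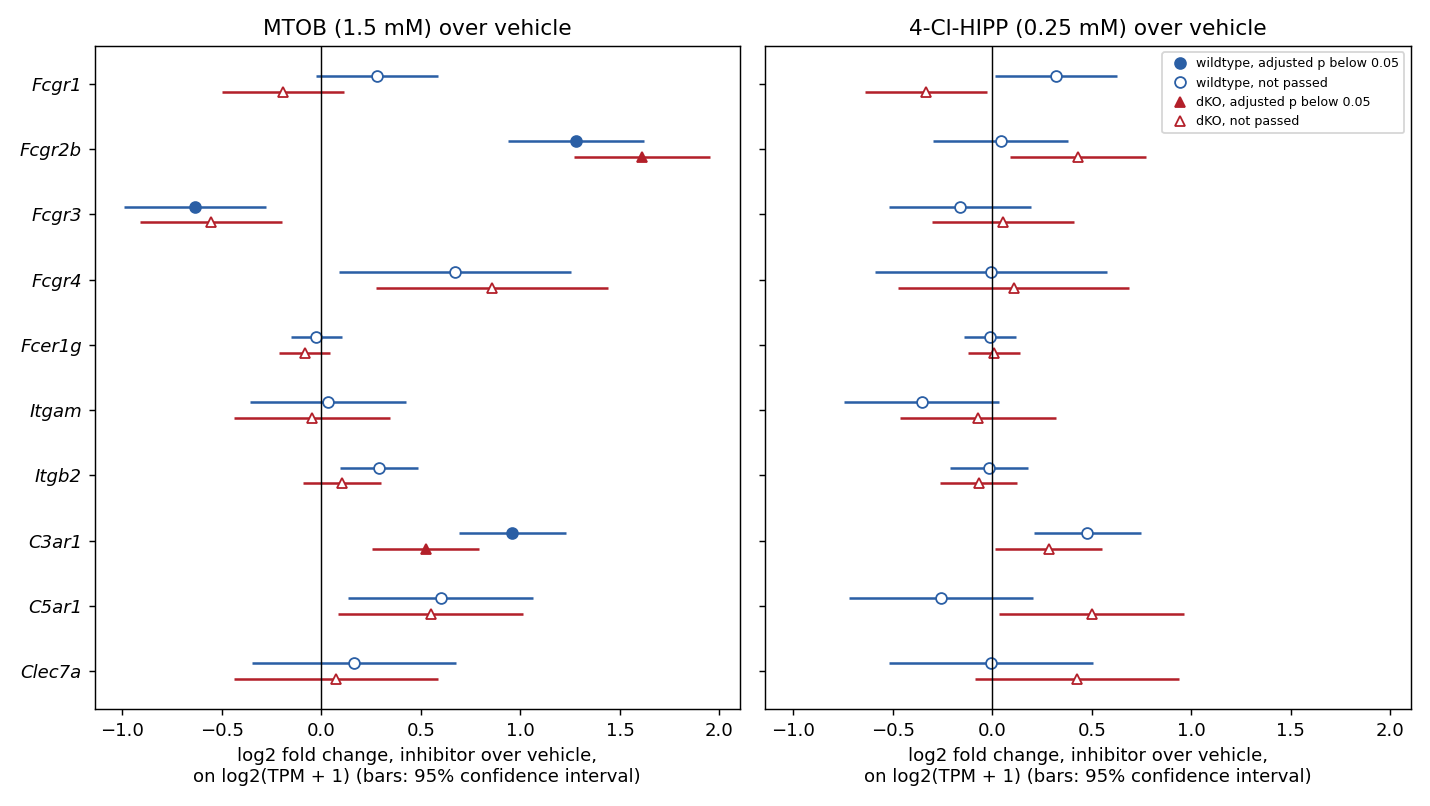
Log2 fold change of each receptor gene with MTOB (left) and 4-Cl-HIPP (right) over vehicle (x axis, on log2(TPM + 1)) in wildtype and dKO cells; bars are 95% confidence intervals, and filled symbols passed an adjusted p-value of 0.05. On this scale Fcgr2b has the largest values, 1.28 and 1.61 with MTOB, and all symbols in the right panel are open.

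MTOB is a keto acid and 4-Cl-HIPP a chlorinated phenyl compound with a hydroxyimino group in place of the keto group, and the first was used at 1.5 mM and the second at 0.25 mM. Because the doses differ, the values stand side by side without a test between the compounds. In wildtype cells Fcgr2b had a log2 fold change of 1.28 with MTOB and 0.04 with 4-Cl-HIPP, C3ar1 of 0.96 and 0.48, and Fcgr3 of -0.63 and -0.16. In dKO cells the values were 1.61 and 0.43 for Fcgr2b, 0.52 and 0.28 for C3ar1, and -0.55 and 0.06 for Fcgr3.

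Whether an inhibitor effect depended on the genotype was tested for each gene as the difference between its effects in wildtype and dKO cells. For MTOB 0 members passed the threshold in limma, with 0.0916% of all genes called, and 2 members had an unadjusted p below 0.05, as did 6.89% of all genes. These were Fcgr1, with a difference of 0.47 (95% confidence interval 0.04 to 0.90, adjusted p = 0.703), and C3ar1, with 0.44 (0.05 to 0.82, adjusted p = 0.680). The difference of C3ar1 depended on the pseudocount, with 0.88 at a pseudocount of 0.1 and 0.02 (SE 0.11) at a pseudocount of 5. For 4-Cl-HIPP 0 members and 0% of all genes passed, and 2 members and 4.48% of all genes had an unadjusted p below 0.05. Fcgr1 had a difference of 0.65 (0.22 to 1.09, adjusted p = 0.963), from effects of 0.32 in wildtype and -0.33 in dKO cells, and C5ar1 had -0.76 (-1.41 to -0.10, adjusted p = 1), from -0.26 and 0.50. Without the first wildtype vehicle sample the difference of C5ar1 was -0.46. The intervals are wide, so differences of this size between the genotypes were not resolved.

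The balance of the IgG receptors is described by the summed TPM of the activating Fcgr1, Fcgr3 and Fcgr4 divided by the TPM of the inhibitory Fcgr2b. With vehicle this ratio was 4.04 ± 0.653 (SD, n = 3) in wildtype and 25.0 ± 9.68 in dKO cells, where it ranged from 14.3 to 33.2. With MTOB it was 1.83 ± 0.0481 in wildtype and 5.36 ± 1.11 in dKO cells, and with 4-Cl-HIPP 4.90 ± 1.54 and 12.8 ± 2.05. The dKO samples were above the wildtype samples of the same treatment in each case, and the MTOB samples were below the vehicle samples in each genotype. Fcgr1 made up most of the numerator. These ratios are descriptions and were not tested. Fcer1g RNA stayed above that of the activating receptors, with 4.65 to 9.60 TPM of Fcer1g per TPM of Fcgr1, Fcgr3 and Fcgr4 summed. Other receptors that use the gamma chain, such as Clec4e below, are not in this ratio, so an excess of the chain is not shown.

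**Figure D4:**
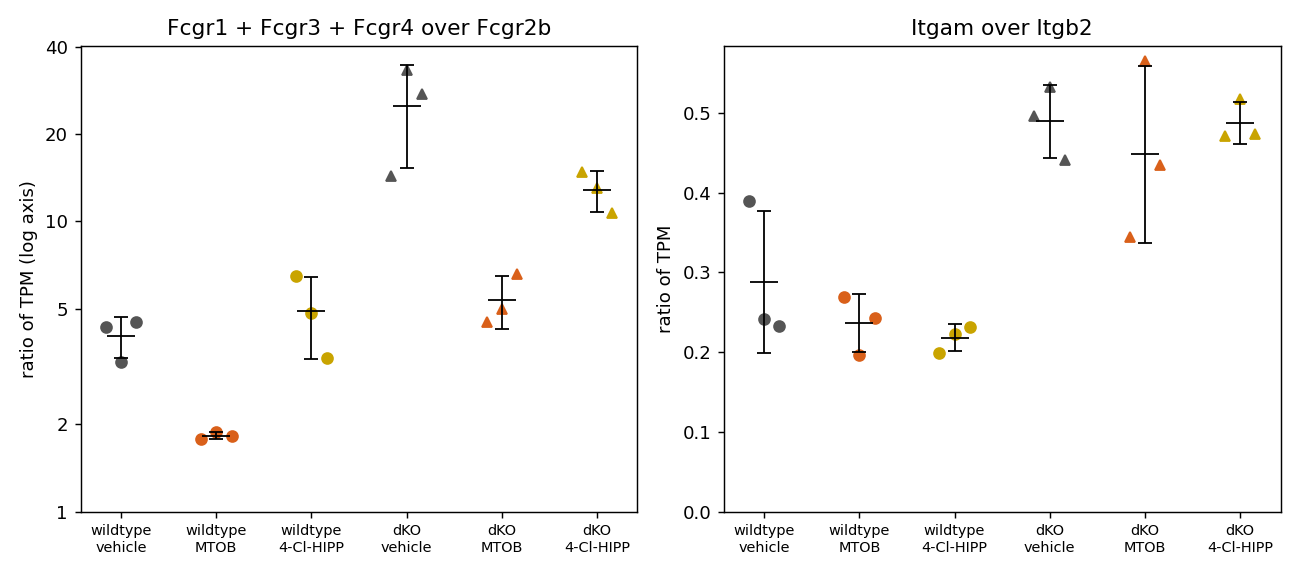
Left, ratio of the summed TPM of Fcgr1, Fcgr3 and Fcgr4 to the TPM of Fcgr2b (log axis); right, ratio of Itgam to Itgb2 TPM (linear axis from 0), per sample (points) with mean and SD of 3 samples. The left ratio is lowest in MTOB-treated wildtype cells (1.83) and highest in vehicle-treated dKO cells (25.0), and the right ratio has means of 0.218 to 0.288 in wildtype and 0.448 to 0.490 in dKO cells.

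Genes that work with these receptors were examined in 5 lists. In dKO against wildtype cells under vehicle, 8 of 26 tested genes of ITAM and dectin-1 signalling were higher and 0 lower, with a median log2 fold change of 0.12 against 0.01 for all genes. Of all genes tested, 7.01% were higher and 3.72% lower in this comparison. The Src-family kinase gene Fgr rose from 2.05 to 20.4 TPM (log2 fold change 2.84, SE 0.17) and Plcg2, a phospholipase downstream of ITAMs, from 78.2 to 96.5 TPM (0.30, SE 0.05). Of 13 leukocyte integrins and activators, 3 were higher and 0 lower (median 0.10). Itgal, the alpha chain of LFA-1 and partner of Itgb2, rose from 4.38 to 36.4 TPM (2.80, SE 0.09), and Itgax (CD11c) was listed at 0 in all wildtype vehicle samples and at a mean of 1.28 TPM in dKO cells. Of 9 complement genes, 3 were higher and 0 lower (median 0.15), among them C5ar2, a further C5a receptor (1.33, SE 0.16), and C3 itself (1.07, SE 0.21).

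Other phagocytic receptors went both ways between the genotypes. Of 25 tested, 9 were higher and 4 lower in dKO cells under vehicle, against 7.01% and 3.72% of all genes, with a median log2 fold change of 0.18. The scavenger receptor gene Msr1 fell from 85.8 to 10.1 TPM (-3.00, SE 0.13) and Cd14, the lipopolysaccharide co-receptor that is also among the macrophage markers, from 458 to 143 TPM (-1.67, SE 0.07). Of 6 other Fc receptors and ITAM adaptors, 1 was higher, the Fc receptor-like gene Fcrl1 (1.08, SE 0.09). In a list this small, 1 call says little about the list. Under MTOB and 4-Cl-HIPP, 9 and 10 of the 25 phagocytic receptors were higher and 5 and 5 lower in dKO cells. Of the 26 signalling genes, 6 and 6 were higher and 4 and 0 lower. The 13 integrin genes had 4 and 3 higher and 1 and 1 lower. The 9 complement genes had 1 and 2 higher and 1 and 0 lower, with medians of 0.06 and -0.05. Among the 6 other Fc receptors and adaptors, 1 and 1 were higher and 1 and 0 lower. Of all genes, 6.98% were higher and 4.18% lower under MTOB, and 6.6% and 3.63% under 4-Cl-HIPP.

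With MTOB in wildtype cells, 7 of the 25 other phagocytic receptors rose and 3 fell, against 3.8% and 3.46% of all genes. Clec4e (Mincle), which like dectin-1 signals through a tyrosine-based motif, by way of the Fcer1g chain, rose from 30.3 to 127 TPM (log2 fold change 2.04, SE 0.11), and Cd14 from 458 to 833 TPM (0.86, SE 0.07). Of the 26 signalling genes 5 rose and 1 fell. Among those that rose were Lyn, a kinase of both activating and inhibitory pathways (0.62, SE 0.05), and Ptpn6, the phosphatase SHP-1 (0.19, SE 0.03). Of the 9 complement genes 2 rose and 1 fell. C3 rose from 1.15 to 5.32 TPM (1.56, SE 0.21) and Cfp, encoding properdin, from 102 to 133 TPM (0.38, SE 0.08). The integrin list of 13 genes had 1 higher and 1 lower gene, the adhesion protein gene Zyx (1.06, SE 0.28) and Rassf5, a Rap1 effector (-0.23, SE 0.06). Of the 6 other Fc receptors and adaptors 1 rose, Fcrl1 by 0.69 (SE 0.09).

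With MTOB in dKO cells 7 of 25 phagocytic receptors were higher and 5 lower, and 2 of 26 signalling genes were higher and 3 lower. Of 13 integrin genes 1 was higher and 3 lower, and of 6 Fc receptors and adaptors 1 was higher. None of the 9 complement genes passed the threshold. Of all genes, 3.04% were higher and 3.54% lower. With 4-Cl-HIPP the phagocytic receptors had 1 higher gene in wildtype cells and 1 higher and 2 lower in dKO cells. The signalling list had 1 higher gene in each genotype, and the other 3 lists had 0 called genes in both. Of all genes, 0.366% were called with 4-Cl-HIPP in wildtype and 0.501% in dKO cells. The median log2 fold changes of all 5 lists lay between -0.07 and 0.13 with either inhibitor in either genotype.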

How the data were processed

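RNA-seq of 18 samples was analysed, 3 per group, with groups taken from the labelled genotype and treatment. The authors quantified reads from an unstranded TruSeq library with Salmon 1.9.0 (GC correction) on the Gencode M28 transcriptome of GRCm39 and imported them with tximport 1.32.0. The methods name rRNA depletion and the labels polyA RNA. The authors deposited TPM for every gene and sample (sums of 999766 to 999897), and also a signal for every gene, namely its normalized count from DESeq2 1.44.0 averaged over the samples. Deposited columns with the authors' own log2 fold changes and adjusted p-values for each inhibitor and genotype were not used.

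Because TPM are not counts, limma 3.58.1 (R 4.3.3 and data.table, version 1.17.8) was run on log2(TPM + 1) with 6 group means, all samples and a prior variance that follows the log2 of that normalized count, for 16383 genes above the 10th percentile of that count (0.222). In 9 contrasts p-values were 2-sided, with Benjamini-Hochberg adjustment over all genes and a threshold of 0.05. The fit was checked on simulated data. Sequencing depth per sample is unknown. Named genes were the 10 members, the targeted genes and, from each of 5 lists written from general knowledge, the 2 with the smallest adjusted p in dKO against wildtype under vehicle and in MTOB against vehicle in wildtype. Other genes of the marker lists were named after their values were seen. Members and lists were chosen with earlier results of these data known. Promoters and shared 100-base windows were read from GRCm39 with GENCODE M39 in Python 3.11.15, and figures drawn with matplotlib 3.10.9. Alternatives were other pseudocounts, expression filters and scaling, no variance trend, only the compared groups, the replicate number as a block and leaving out each sample. Other promoter motifs are not reported here. Sums of Fcgr2b with Fcgr3 and of Itgam with Gm49368 were added after seeing the data.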

Additional observations from a re-analysis of the deposited data

How the results depend on the processing

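Through the alternatives 45 member values were carried, those with an unadjusted p below 0.05 in the main limma fit. None of these reversed, but values this far from 0 seldom change sign. The sign of the other member values was not followed. The MTOB interaction of Fcgr2b was not among them, and its sign was not settled. Of 26 called member values, 21 stayed called under every alternative and with any sample left out; the 5 others are Fcgr3 with MTOB in wildtype, C3ar1 with MTOB in dKO, Fcgr1 between genotypes under vehicle, and Fcgr4 between genotypes under either inhibitor. The number of members called with MTOB in dKO cells was 2, and it was 1 at a pseudocount of 0.1, 4 at a pseudocount of 5 and 1 with only the groups compared in the fit. Leaving out single samples gave 1 to 2 there, 2 to 3 with MTOB in wildtype, 7 between genotypes under vehicle, 6 to 7 under each inhibitor, and 0 with 4-Cl-HIPP and for both interactions. With only the compared groups, genes called over the whole table fell from 1189 to 699 with MTOB in wildtype, from 1078 to 305 in dKO, from 60 to 24 and 82 to 9 with 4-Cl-HIPP, from 1829 to 995 between genotypes under MTOB and from 15 to 10 for the MTOB interaction, a count that was 6 without the variance trend and 8 with the block. Leaving out single samples gave 19 to 44 genes with 4-Cl-HIPP in wildtype (19 without vehicle replicate 3, 21 without 4-Cl-HIPP replicate 2), 36 to 80 in dKO (51 or fewer without any sample but 4-Cl-HIPP replicate 2) and 7 to 20 for the MTOB interaction (9 or fewer without wildtype vehicle 1, wildtype MTOB 1, dKO vehicle 1 or 3, or dKO MTOB 1 or 2). Rescaling TPM moved MTOB calls in dKO from 498 higher of 1078 to 602 of 1034. No pairing by replicate number was seen (correlations across genes of deviations from the group means, -0.06 to 0.08). With 3 samples per group this does not show that pairing was absent. The replicate block changed 1 member call, Fcgr4 between genotypes under 4-Cl-HIPP (adjusted p = 0.0584, 6 members in place of 7). The causes were not tested. A mean normalized count of at least 10 left Fcgr4 untested. Read depth limits Fcgr4, Fcgr3 and Clec7a most.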
